A study of Mus musculus with 2 samples.

Results

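The genes described here encode the proteins of the small (40S) ribosomal subunit, seen in native RNA from mouse retinal organoids. They were chosen by name alone: Rpsa, or Rps followed by a digit, leaving out the Rps6k kinases. The rule found 29 of the 8262 named genes listed. Of these, 23 are among 31 genes of a textbook list of 40S proteins. The other 6 are Rps27l, a paralog of Rps27, the retrogene Rps23rg1, the retrocopies Rps4l, Rps3a2 and Rps3a3, and Rps19bp1, which is no ribosomal protein but a nucleolar partner of Rps19. The remaining 8 textbook genes, Rps12, Rps15, Rps15a, Rps27, Rps29 and Rps3a1 among them, had no listed position in either library.

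Poly(A) RNA came from 2 wild-type organoid samples of the Rx:GFP stem cell line, which carries a green fluorescent reporter of the early eye-field gene Rx (Rax), differentiated to day 6 with 0.1 µM AGN, an agent both samples received. Each library was read directly on nanopores (RNA002 chemistry), in which modified bases such as N6-methyladenosine (m6A) alter the current. Both libraries form 1 group (n = 2), so no condition was compared, and nothing in the labels says whether they came from separate cultures or differentiations; the spread given below may be technical. The study is about the m6A that the methyltransferase METTL3 makes in retinal development; both libraries carry the same batch label. Of genes checked as markers of the labelled tissue, Rax, Lhx2, Six3, Six6, Pax6, Sox2 and Otx2 were each listed in both libraries. The pluripotency genes Pou5f1, Nanog and Zfp42 were listed in neither. Depth was low for Pax6 (at most 7 and 17 reads), Six3 (15 and 32) and Otx2 (14 and 40). The tables listed 26441 positions in replicate 1 and 50099 in replicate 2, with a median of 10 and 12 reads and never fewer than 5.

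Ribosomal proteins assemble with rRNA in the nucleolus, and the 40S subunit they build binds the mRNA, scans for the start codon and holds the decoding centre. Their mRNAs are short, abundant and long-lived, and most begin with a run of pyrimidines, the 5′ TOP element, through which the growth-sensing kinase mTOR controls their translation. In mRNA, m6A is written by METTL3 with METTL14 in a short motif around an A followed by C, and reader proteins of the YTH family then tie it to decay and translation.

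The deposited tables hold a motif of 5 bases for each position and no longer sequence. There were 4 motifs in all, GGACA and GGACC and GGACT and AGACT, all with the methylated A expected in the middle. Which base a listed position marks was looked up in start-site windows of RefSeq (GRCm38.p6). Of 137 listed positions within the first 46 nt of a transcript, 48 had their motif within the first 50 transcribed bases. At 23 of them the motif began 3 bases before the listed end, and the next most frequent offset was found 3 times. Where this offset holds, the listed end falls on base 4 of the motif, the C after the central A. Positions below are the listed ends.

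The start of the transcript is a feature the name rule did not use. A start window was found for 26 of the small subunit genes, textbook genes without a listed position included. Its first 5 transcribed bases were all C or T in 8 of them (30.8%), against 5.28% of 27025 genes of the same table and 23.8% of 42 large subunit genes. Only the transcribed strand was searched, and a start annotated a few bases off misses such a run. The windows of 5 members with a site in both libraries, 8 bases before to 14 bases after the start, show this pyrimidine run in capitals, with coordinates in GRCm38.p6.
Rps10, chr17:27635231-27635252, minus strand: gcacgcccCTTCCTTTCCagcc
Rps18, chr17:33955652-33955673, minus strand: cttccgctCTCTCTTCCacagg
Rps6, chr4:86857354-86857375, minus strand: agtcgggcCTCTTTTTCgtgac
Rps24, chr14:24490670-24490691, plus strand: tggggtccTTCCTTgcgcgttg
Rps21, chr2:180257371-180257392, plus strand: gacccgccCTCCTgcccaatag
The run is 10 bases long in Rps10, 9 in Rps18 and Rps6, 6 in Rps24 and 5 in Rps21. The fraction modified at the sites of these 5 genes, given below, covers the whole range of the members' sites in both libraries.

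A site was a position with at least 20 reads, and sites of both libraries were matched on transcript and position. Small subunit genes had 57 sites in 21 genes in replicate 1 and 65 sites in 22 genes in replicate 2. In both libraries 47 sites were found, in 18 genes. With 1 transcript per gene, the one with most sites, 32 sites remained, and all summaries use these. Most genes carried few: 9 had 1 site, 5 had 2, 3 had 3 (Rps2 and Rps3 among them) and 1 had 4 (Rps19bp1). The median was 1.5 sites per gene, against 2 in the 1869 other genes with a site.

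The 11 members without a site in both libraries failed in different ways. Rps7, Rps9 and Rps27a, which is made as a fusion with ubiquitin, reached at most 8, 21 and 8 reads. Rps13 had 6 reads at most in replicate 1 and 146 in replicate 2, where position 480 of transcript ENSMUST00000170953.2 was listed with a fraction of 0.625. Rps26 was listed in replicate 2 alone, with a fraction of 0.294 over 142 reads. Rps25 and Rps27l were listed in replicate 1 alone, with 0.762 over 27 reads and 0.722 over 24 reads. Among the retrocopies, Rps3a3 had 0.0741 over 82 reads in replicate 1 alone, Rps3a2 reached 11 reads and Rps23rg1 reached 5. Rps4l missed the minimum by 1 read, with 19 in replicate 1 and 49 in replicate 2. Why a member was unlisted or shallow was not tested.

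These mRNAs are among the deepest in the data. Coverage over the 32 sites had a median of 1497 reads in replicate 1 (20 to 2679) and 2276 in replicate 2 (39 to 3933). At the sites of other genes the medians were 36 and 77. Of 67 sites with at least 1000 reads in both libraries, 23 lay in 15 small subunit genes, 24 in large subunit genes and 20 in all others. The sites lay at positions 61 to 696 (median 369.5), counted from the start of the transcript, against a median of 1072 in other genes. Transcript lengths were not used here, so the place of a site within its RNA was not determined.

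The highest fraction was found in Rps24, a protein of the body whose gene is mutated in some patients with Diamond-Blackfan anaemia, a failure of red cell production. At its GGACA of position 527 (chromosome 14, gene 24537193 to 24547027, as deposited) replicate 1 gave a fraction of 0.963 (1652 reads) and replicate 2 gave 0.942 (2535 reads), or 0.952 ± 0.0146 (SD, n = 2). This exceeds 86.0% of the GGACA sites of other genes. Its AGACT of position 346 had 0.612 over 1664 reads and 0.516 over 2553 reads, a gap of 0.0961 between libraries that was the largest among the 23 deepest small subunit sites.

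Rps4x, encoded on the X chromosome (gene 101228547 to 101233000), had its only site at position 327, a GGACC with 0.849 over 1613 reads and 0.891 over 2516 reads, or 0.870 ± 0.0297 (SD, n = 2). It stood above 96.5% of the GGACC sites of other genes. Rps2, at the channel through which mRNA enters, had 2 further high GGACC sites on transcript ENSMUST00000054289.12 (chromosome 17, gene 24937090 to 24940903). Position 206 had 0.796 over 357 reads and 0.749 over 605 reads, and position 531 had 0.656 over 470 reads and 0.536 over 786 reads. The difference at position 531, -0.1195, was the largest between libraries at any small subunit site with 50 reads or more. Even so, its mean of 0.596 ± 0.0845 (SD, n = 2) lay above 87.5% of the GGACC sites of other genes. The remaining site, a GGACA of position 80, had 0.588 over 30 reads and 0.577 over 62 reads.

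Other proteins of the body and platform ranged widely. Rps21 (chromosome 2, gene 179899170 to 179900238) had 0.773 over 1309 reads and 0.753 over 1939 reads at position 61, a GGACA and the lowest position number of the 32 sites. Rps6, the protein phosphorylated by the S6 kinases (chromosome 4, gene 86772897 to 86775649), had the lowest site of all at position 489, a GGACC with 0.0398 over 1450 reads and 0.0454 over 2282 reads. Its second GGACC, at position 598, had 0.532 over 1479 reads and 0.510 over 2309 reads, both far above the first. Rps23, which reaches into the decoding centre, had 0.369 and 0.325 at position 122, a GGACC. Rpsa, also known as the laminin receptor precursor, was low at both sites, with 0.123 over 1743 reads and 0.119 over 2890 reads at position 495, a GGACC, and 0.303 and 0.311 at position 649, a GGACA above only 18.8% of those in other genes. Rps14 was low as well, at 0.164 and 0.159 over 2679 and 3933 reads at position 642, a GGACT and the deepest site of the set.

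Among proteins of the head, Rps3 (chromosome 7, gene 99127103 to 99132945), which lines the mRNA entry channel, had 3 sites. Position 254, a GGACA, had 0.852 over 1797 reads and 0.834 over 2729 reads. Position 281, also GGACA, had 0.589 over 1818 reads and 0.622 over 2761 reads. Position 696, a GGACC, was low at 0.116 over 2024 reads and 0.141 over 3208 reads. All 3 kept their order in both libraries.

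Rps28, a short protein at the mRNA exit, had 0.793 over 558 reads and 0.835 over 695 reads at position 166, a GGACA, and only 0.258 and 0.254 at position 152, a GGACC 14 nt before it. Rps19, the gene most often mutated in Diamond-Blackfan anaemia (chromosome 7, gene 24583796 to 24589231), had 0.712 over 1416 reads and 0.698 over 2210 reads at position 402, a GGACA at the middle of its class. Rps18, which sits where the head meets the large subunit (chromosome 17, gene 34170973 to 34174975), had 0.668 over 1554 reads and 0.639 over 2439 reads at position 340, an AGACT. In Rps20 (chromosome 4, gene 3831334 to 3835665) the AGACT of position 358 had 0.550 over 2106 reads and 0.563 over 3142 reads, while the GGACC of position 336 had 0.299 and 0.276. Rps10 and Rps16, whose protein reaches toward the tRNA sites, were the low members of the head. The AGACT of position 316 in Rps10 had 0.203 over 1620 reads and 0.183 over 2269 reads. Rps16 had 0.159 over 2209 reads and 0.166 over 3422 reads at position 381, a GGACA above only 8.30% of that motif's sites in other genes.

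Head and body overlapped. The 11 head sites, in 7 of 14 textbook genes, had a median fraction of 0.550 in replicate 1 and 0.563 in replicate 2. The 17 body and platform sites, in 10 of 17 genes, had 0.588 and 0.516. The order of the parts thus changed between libraries, and the mean fractions ran from 0.129 to 0.843 in the head and from 0.0426 to 0.952 in the body.

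**Figure D1:**
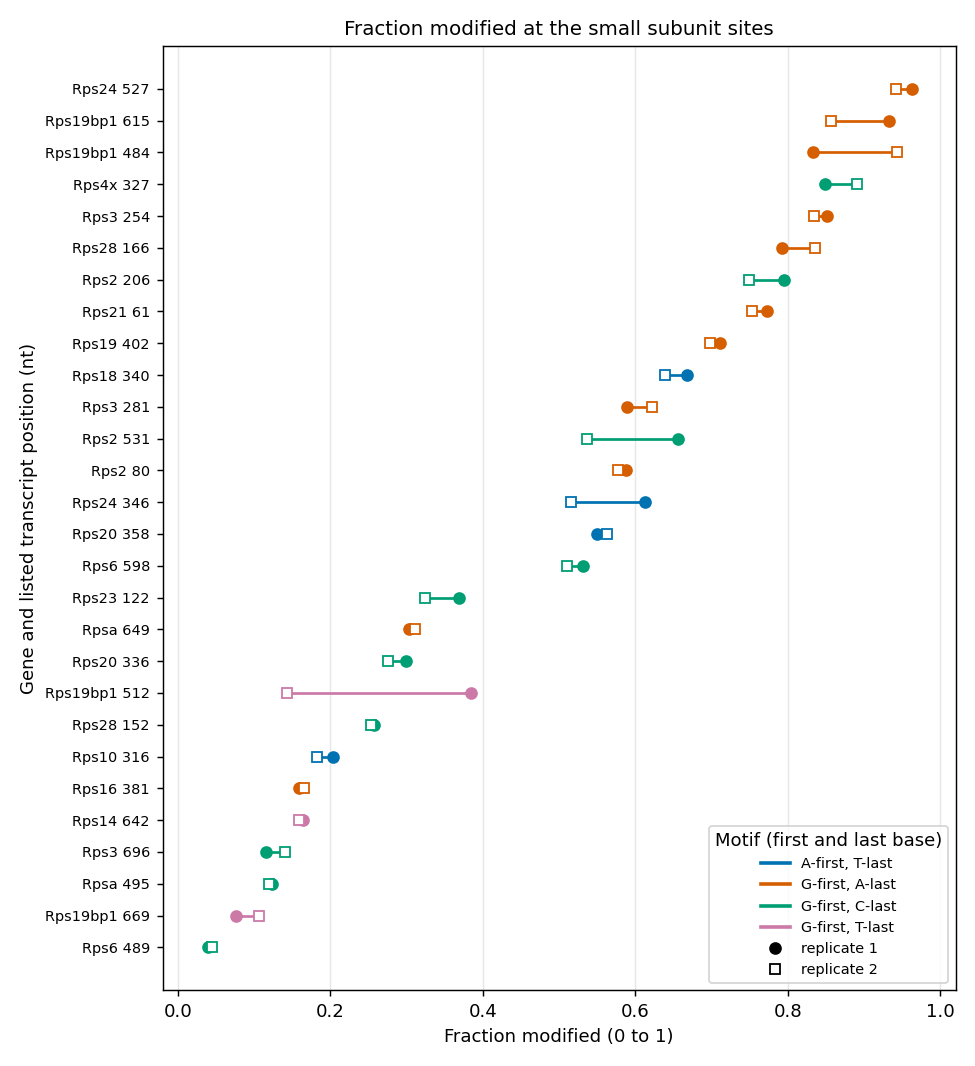
Fraction modified at 28 of the 32 sites of small subunit genes, 1 row per site, labelled by gene and listed position; filled circles are replicate 1, open squares replicate 2, and colour gives the first and last base of the motif. Sites run from 0.0426 in Rps6 to 0.952 in Rps24 (means of both libraries), and the lines joining the libraries are short beside that range except at the shallow Rps19bp1 position 512.

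Rps19bp1 stood apart in depth, with 20 or 21 reads in replicate 1 and 39 to 41 in replicate 2 at its 4 sites (chromosome 15, gene 80144816 to 80148516). Both of its GGACA sites were high: position 484 had 0.833 over 20 reads and 0.943 over 39 reads, and position 615 had 0.933 over 20 reads and 0.857 over 41 reads. Its GGACT sites were lower, with 0.385 over 20 reads and 0.143 over 39 reads at position 512, and 0.0769 over 21 reads and 0.107 over 41 reads at position 669. The gap of -0.2417 at position 512 was the widest of the 32 sites, at the lowest depth among them.

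The comparison with other genes was made within each motif, because the fraction of other genes differed between motifs. A site was called high where its fraction was 0.5 or more in both libraries. Of the 32 small subunit sites, 18 were high (56.3%), against 36.2% of all 4851 sites. At AGACT, 3 of 4 were high against 21.1% of all sites, and the median was 0.581 in replicate 1 and 0.540 in replicate 2 against 0.267 and 0.255 in other genes. The difference, small subunit minus other genes, was 0.299 ± 0.0210 (SD, n = 2). It rests on 1 site each in Rps10, Rps18, Rps20 and Rps24, of which Rps10 lay below the median of other genes.

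At GGACC, 4 of 10 were high against 16.4% of all sites. The medians were 0.334 and 0.3003, against 0.214 and 0.225 in other genes, a difference of 0.0975 ± 0.0313 (SD, n = 2), with 7 of 10 sites above the other genes' median. At GGACT the direction was opposite: 1 of 5 was high against 22.9%, and the medians of 0.164 and 0.143 lay below the 0.267 and 0.248 of other genes, a difference of -0.1035 ± 0.00145 (SD, n = 2). At GGACA, 10 of 13 were high against 61.9%, with medians of 0.712 and 0.698 against 0.688 and 0.667, a difference of 0.0279 ± 0.00537 (SD, n = 2). Only 7 of these 13 sites were above the median of other genes. This difference changed sign, to -0.0307, without the 2 Rps19bp1 sites. It was also negative with no minimum (-0.0194) and with 50 reads (-0.00715), but positive with 100 reads (0.0327). No Rps19bp1 site reaches 50 reads, so for the ribosomal proteins alone the sign of this difference depended on the minimum.

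The sign of each difference was the same in both libraries, and each was larger than its spread over them. The exact permutation test over libraries, two-sided, gave p = 0.5 for every motif, the smallest value that 2 libraries allow, so none of these differences could pass a threshold. Sites also share genes and transcripts and were not treated as replicates. Small subunit sites were deeper than those of other genes, so the comparison was repeated with at least 100 reads at every site. The differences were then 0.306 at AGACT, 0.0327 at GGACA, 0.140 at GGACC and -0.1147 at GGACT. This did not match depth: the replicate 1 medians were still 1613 reads in small subunit genes and 168.5 in other genes. The GGACA difference was 0.0568 when all transcripts or the deepest were kept and 0.0592 when each gene counted once. The GGACC difference was 0.210 with all transcripts and 0.0592 with each gene counted once, and the GGACT difference shrank to -0.0278 without a minimum.

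**Figure D2:**
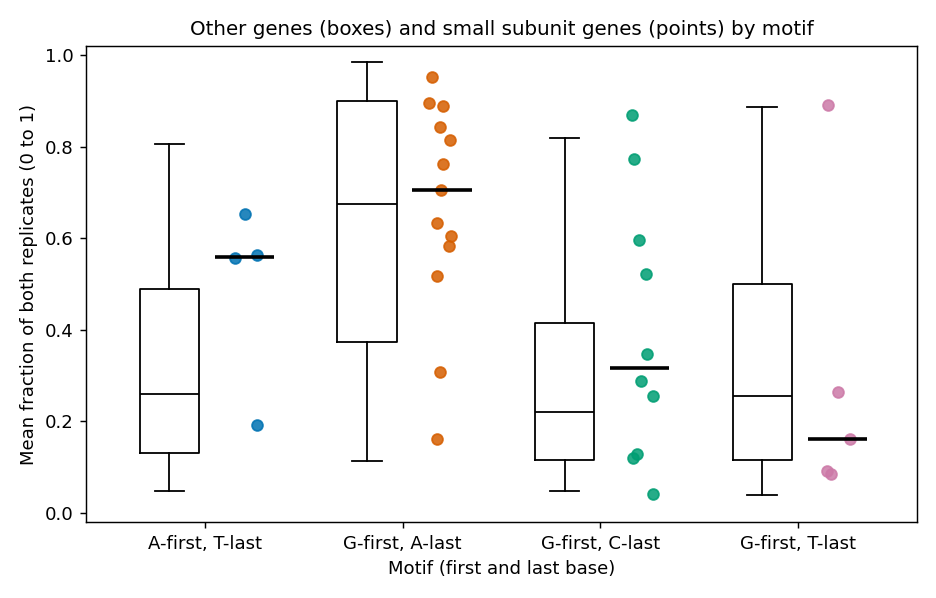
Mean fraction of both replicates by motif, named by its first and last base. Boxes show the quartiles and whiskers the 5th and 95th percentiles of other genes, points are single small subunit sites and thick bars their median; 3 of 4 points of the class that starts with A and ends with T lie above the box, while 1 of 5 points of the class that starts with G and ends with T lies above 0.5.

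Large subunit protein genes are the closest set, with 58 sites in 33 genes. Their medians by motif were 0.346 and 0.376 at AGACT, 0.804 and 0.794 at GGACA, 0.264 and 0.242 at GGACC, and 0.334 and 0.332 at GGACT, in replicates 1 and 2. The small subunit genes were thus higher than the large at AGACT and GGACC and lower at the other motifs, in each library; these differences were not tested. In all, 24 of the 58 large subunit sites were high (41.4%), and 35 of 101 sites of mitochondrial ribosomal protein genes (34.7%).

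The mix of motifs was also compared. Among small subunit sites 40.6% were GGACA, 31.3% were GGACC, 15.6% were GGACT and 12.5% were AGACT. In other genes these shares were 38.5%, 21.9%, 23.9% and 15.7%. With 32 sites, the 95% exact (Clopper-Pearson) interval of each small subunit share, such as 16.1% to 50.01% for GGACC, included the share of other genes. These intervals cover counting error only.

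Sites of the same motif on 1 transcript were then set side by side, since the motif itself cannot separate them. Given here are 5 such pairs in 4 genes. In Rps6 the second GGACC, 109 nt downstream, was higher by 0.492 in replicate 1 and 0.465 in replicate 2. This difference of 0.479 was many times its spread over libraries, 0.0192 (SD, n = 2). In Rps3 the second GGACA, only 27 nt downstream, was lower by 0.264 and 0.212, and in Rps2 the second GGACC was lower by 0.140 and 0.213. The remaining pairs lie in the shallow Rps19bp1. Its GGACA pair changed sign between libraries (0.1 and -0.0858), and its GGACT pair differed by -0.3077 and -0.0358.

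**Figure D3:**
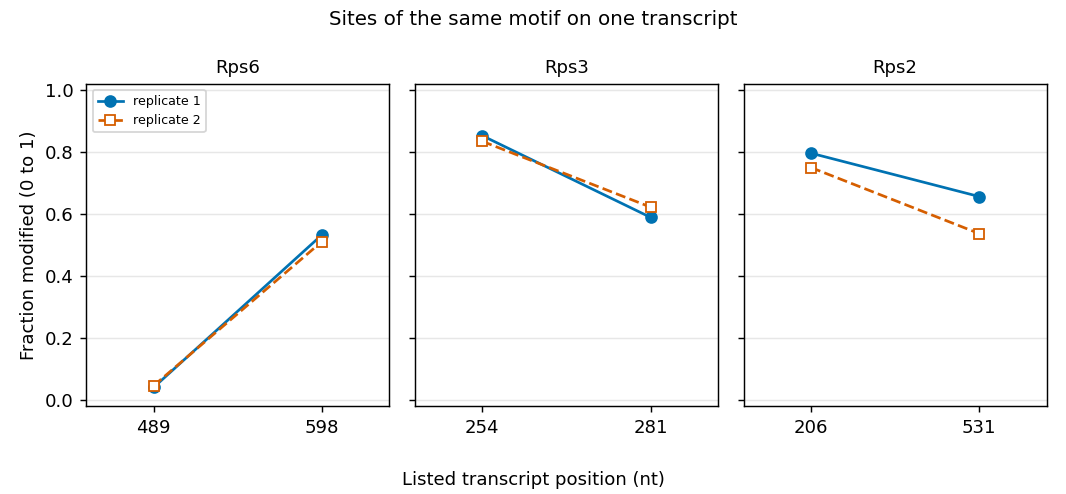
Fraction modified at pairs of sites of the same motif on 1 transcript of Rps6, Rps3 and Rps2, by listed position; solid lines with circles are replicate 1 and dashed lines with squares replicate 2. The Rps6 pair rises by 0.492 and 0.465, while the Rps3 and Rps2 pairs fall.

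Reads of 9 genes had been placed on more than 1 transcript with a site in both libraries. Where 2 transcripts carry the same motifs at the same spacing, they may be the same bases, which was not checked on sequence. In Rps2 the GGACC pair 325 nt apart recurred on transcript ENSMUST00000170715.7, with 0.759 over 1894 reads and 0.713 over 3355 reads at position 113, and 0.535 and 0.493 at position 438. The second site was the lower one on both transcripts. On a further one, ENSMUST00000146867.1, the pair was listed in replicate 1 alone, with 0.571 over 20 reads and then 0.647 over 22 reads, so the second was the higher there. In Rpsa the pair 154 nt apart recurred on ENSMUST00000217317.1, with 0.177 over 63 reads and 0.139 over 98 reads at the GGACC and 0.341 and 0.281 at the GGACA, close to the values on the main transcript. For genes with 1 site of a motif on each isoform, the isoform means differed by 0.0008 for Rps28, 0.001 for Rps10, 0.0345 for Rps24, 0.0507 for Rps14, 0.0515 for Rps20, 0.0552 for Rps18 and 0.102 for Rps19. Isoforms share much of their sequence, so how reads were divided between them was not tested and the values are not independent.

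The libraries differed little at most of these sites. The median absolute difference over the 32 sites was 0.0226, and the largest at 50 reads or more was 0.1195. A difference of more than 0.1 was found at 3 of 32 sites (9.38%), against 26.1% of all sites, which were far shallower. With 100 reads or more it was found at 1 of 27 small subunit sites (3.70%) and at 5.69% of the sites of other genes, and with 1000 reads at none of either. The fraction was lower in replicate 2 at 21 sites and higher at 11. In all other genes it was lower at 2531 sites and higher at 2196. Large subunit genes, included there, had 36 lower and 22 higher. At 1000 reads or more in both libraries the median absolute difference was 0.0205 at 23 small subunit sites, 0.01 at 24 large subunit sites, and 0.0118 at all 44 sites outside the small subunit genes, large subunit sites included. At minimums of 20, 50 and 100 reads it was 0.0226, 0.0207 and 0.0207 in small subunit genes, against 0.02105, 0.0179 and 0.0139 in large subunit genes and 0.0513, 0.0342 and 0.0244 in all other genes. The small subunit median was thus above that of the large subunit at all 4 minimums, and above that of all other genes at 1000 reads only; these differences were not tested. Coverage in replicate 2 was a median of 1.55 times that in replicate 1 (1.25 to 2.07), against 2 times at other genes' sites.

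**Figure D4:**
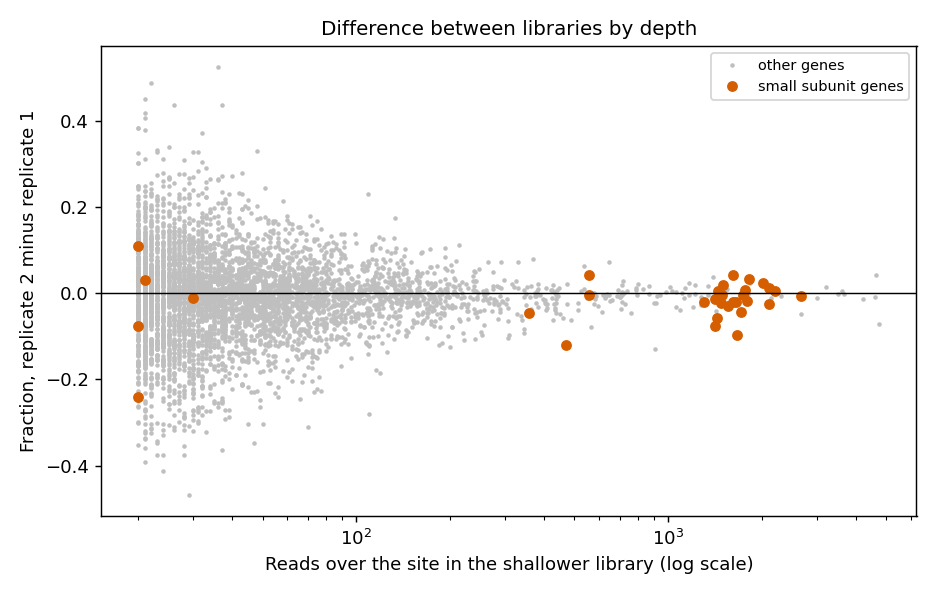
Difference in fraction, replicate 2 minus replicate 1, against the reads in the shallower library (log axis), with small subunit sites in orange and other genes in grey. The grey cloud narrows with depth, and the 23 small subunit sites beyond 1000 reads lie within 0.0961 of 0.

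A few positions were listed in 1 library only, although the transcript was deep in both. In Rps21 the GGACC of position 114 had 0.817 over 2108 reads in replicate 2 and was not listed in replicate 1, where position 61 of that transcript had 1309 reads. Rps10 showed the reverse, with 0.184 over 1431 reads at position 58, a GGACC, in replicate 1 and no listing in replicate 2, where the transcript reached 2269 reads. The other case was position 478 of the Rps14 transcript ENSMUST00000122279.1, with 0.273 over 300 reads in replicate 1. Together these were 2 of 33 positions with 100 reads or more in replicate 1 and 1 of 32 in replicate 2 (6.06% and 3.13%), against 9.14% and 6.17% over all genes on transcripts with 100 reads in both. All 3 were GGACC, but the motifs of such positions over all genes were not counted, so no link to the motif can be drawn. What decides a listing is not stated in the sources used here.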

How the data were processed

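Direct RNA reads of 2 libraries (1 µg poly(A) RNA each, about 48 h on a flow cell) had been turned by the authors into tables of positions. The deposited fraction modified lies between 0 and 1; its denominator is not stated, and only 1 of 19 and 2 of 23 member values at 20 to 60 reads were whole multiples of 1 over the reads (tolerance 6e-05), so no interval was set on a fraction. Coverage is a deposited read count. Base caller, aligner and modification caller are not given in the sources used here. The submitters' processing notes name mm10, but 1 of 29 member gene starts lay within 1000 bases of RefSeq GRCm38.p6 (3.03% of 8174 genes), so the build of the deposited gene coordinates is not settled; RefSeq coordinates are given only for start windows.

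Sites needed 20 reads in each library. Of several transcripts the one with most sites was kept, then the deeper. Medians per motif were taken in each library (Python 3.11.15, pandas 2.3.3, scipy 1.17.1). They were checked on simulated shifts with far more sites per motif than the members have, so this does not cover such small sets. A few members are counted in all summaries but are not reported here by name. The other members with a site in both libraries are named; full values are given for sites with a mean of 0.5 or more, the 3 lowest, the largest difference at 50 reads, and the genes with most sites. Alternatives changed the minimum, the transcripts, the matching and the comparison genes. Members and lists were chosen with earlier results of these data known. Intervals cover counting error only. The minus tables were not used here.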

Additional observations from a re-analysis of the deposited data

How the results depend on the processing

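Of 81 alternative values for counts, medians and shares, 69 stayed within 1.5 times, 1 SD or the binomial interval, in that order, and 12 moved. Of 44 for the differences from other genes, 41 kept their sign but only 23 lay within 1 SD (n = 2) of the reported value. With n = 2, a value with 1 replicate left out lies within 1 SD of the mean by arithmetic. Such values are counted in both tallies, so both overstate stability. The AGACT difference spanned 0.285 to 0.372 and that of GGACA -0.0307 to 0.0592. That of GGACC spanned 0.0592 to 0.210 and that of GGACT -0.1147 to -0.0278. Each reversal concerned the GGACA difference from other genes (0.0279): it was -0.0194 without a minimum, -0.00715 with 50 reads and -0.0307 without the genes outside the textbook list. The GGACA median moved from 0.705 to 0.676 with no minimum and with 50 or 100 reads, 0.646 without those genes, and 0.734 with all transcripts or the deepest one. Without a minimum the medians were 0.620 at AGACT, 0.347 at GGACC and 0.213 at GGACT. With all transcripts they were 0.590 at AGACT and 0.430 at GGACC, and the deepest transcript gave 0.347 at GGACC. The cause was not tested, beyond the added or dropped sites. Leaving out the genes outside the textbook list, and the deepest transcript, were chosen after seeing the data. Without each replicate in turn, the AGACT median lay between 0.540 and 0.581 (difference 0.285 to 0.314), the GGACA median between 0.698 and 0.712 (0.0241 to 0.0317), that of GGACC between 0.3003 and 0.334 (0.0754 to 0.120) and that of GGACT between 0.143 and 0.164 (-0.1046 to -0.1025); with n = 2 this says little about stability. No paired analysis was possible because both libraries belong to 1 group. The few sites per motif, 4 to 13, limit every median.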

Other observations

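The name rule misses 2 proteins of the small subunit, and both had sites. Rack1, a scaffold on the head that binds protein kinase C, had a GGACA of position 617 with 0.913 (1546 reads) in replicate 1 and 0.925 (2582 reads) in replicate 2; among the members' GGACA sites only Rps24 position 527 had a higher mean. Fau, made as a fusion of a ubiquitin-like protein with the small subunit protein of the body, had an AGACT of position 391 with 0.0582 over 586 reads and 0.0526 over 987 reads, below all 4 AGACT sites of the members. On its isoform ENSMUST00000178310.7 the values were 0.0482 and 0.0486, and on ENSMUST00000179142.1, with 29 and 38 reads, 0.174 and 0.0968.

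Pseudogenes of small subunit genes were listed as well, 15 of them with 29 positions, of which 2 positions reached 20 reads in both libraries. Some repeat the spacing of their parent. Rps2-ps10 held the GGACC pair 325 nt apart in replicate 2, with 0.736 over 181 reads and 0.560 over 286 reads, beside 0.713 and 0.493 on the deepest Rps2 transcript. Rps6-ps4 held the pair 109 nt apart, with 0.0714 over 15 reads and 0.438 over 18 reads, beside 0.0454 and 0.510 in Rps6. Whether these reads come from the pseudogene or from its parent was not tested.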
